A study of Mus musculus with 5 samples.

Results

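Transcripts of somatostatin (Sst), retinol binding protein 4 (Rbp4), pancreatic polypeptide (Ppy) and peptide YY (Pyy) were followed in single cells of mouse islets. These 4 genes are rows of all 5 deposited tables, out of 6630 genes that the tables share. The islets came from C57BL/6 mice and were dissociated, and viable cells were sequenced by inDrop. In this droplet method a barcode on every captured RNA, the unique molecular identifier (UMI), lets molecules be counted. Non-pregnant females gave 1 library, pregnancy gave the libraries pregnant 1 and pregnant 2, and the postpartum period gave postpartum 1 and postpartum 2. The labels give no treatment, transgene, age, day of pregnancy or day after birth, and do not say how many animals a library holds.

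A cell was put in the delta class where Sst was the largest of Ins1 plus Ins2, Gcg, Sst and Ppy, and in the gamma class where Ppy was the largest. By the same rule insulin gave the beta class and glucagon the alpha class. Of 4672 cells, 121 fell in the delta class, 106 in the gamma class, 558 in the alpha class and 3862 in the beta class. Another 25 had no single largest hormone. In library order (non-pregnant, pregnant 1, pregnant 2, postpartum 1, postpartum 2) there were 39, 35, 7, 15 and 25 delta-class cells and 34, 35, 3, 13 and 21 gamma-class cells. Sst and Ppy therefore define their own classes, and their levels there are a description. Rbp4 and Pyy took no part in the rule.

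Delta cells secrete somatostatin, which acts on receptors of neighbouring alpha and beta cells to restrain glucagon and insulin release. Gamma cells, also called PP cells, secrete pancreatic polypeptide, which belongs with peptide YY and neuropeptide Y to one peptide family. Peptide YY is best known as a hormone of gut endocrine cells and is also made in islets. Rbp4 carries retinol in blood, and its transcript is used as a marker of delta cells.

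All 4 genes lie on the minus strand, and no other annotated gene overlaps any of them (GENCODE annotation, GRCm38). Ppy (ENSMUSG00000017316.13) spans chr11:102099930-102101319 and Pyy (ENSMUSG00000017311.15) spans chr11:102106676-102107832, so the paired peptide genes are neighbours with 5356 bases and 0 other genes between them. Sst (ENSMUSG00000004366.4) spans chr16:23889573-23890958, and Rbp4 (ENSMUSG00000024990.13) spans chr19:38116629-38125281. The 250 bases before a transcription start of Sst, Ppy and Pyy are printed below, since the overlap of these 3 hormone transcripts in cells is described further on. A link between these sequences and that overlap was not tested. The windows are chr16:23890845-23891094 for Sst, chr11:102101320-102101569 for Ppy and chr11:102107833-102108082 for Pyy, all on the minus strand (RefSeq, GRCm38.p6), written 5′ to 3′. The GENCODE start of Sst lies inside its window, upstream of the motif shown, so by that annotation the motif is within the gene. Capitals mark the cyclic AMP response element TGACGTCA and the TATA motif TATAA.
Sst: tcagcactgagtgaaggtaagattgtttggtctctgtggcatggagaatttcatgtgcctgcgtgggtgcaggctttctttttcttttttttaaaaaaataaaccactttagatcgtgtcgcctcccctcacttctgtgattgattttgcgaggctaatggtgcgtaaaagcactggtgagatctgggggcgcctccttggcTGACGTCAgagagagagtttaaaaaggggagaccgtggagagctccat
Ppy: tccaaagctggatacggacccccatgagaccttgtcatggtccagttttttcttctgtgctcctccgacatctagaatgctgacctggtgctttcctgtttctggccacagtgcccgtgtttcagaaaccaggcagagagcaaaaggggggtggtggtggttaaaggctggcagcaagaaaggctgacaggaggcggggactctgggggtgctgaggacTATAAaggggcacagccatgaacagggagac
Pyy: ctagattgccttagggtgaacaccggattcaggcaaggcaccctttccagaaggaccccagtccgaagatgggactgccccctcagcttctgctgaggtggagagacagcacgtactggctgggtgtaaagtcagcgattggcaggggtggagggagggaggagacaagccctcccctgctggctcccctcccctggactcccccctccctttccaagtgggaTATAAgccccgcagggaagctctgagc
TGACGTCA, a palindrome and the site through which cyclic AMP is known to switch on somatostatin transcription, began 48 bases before the RefSeq start of Sst. It was in 1.55% of 32851 promoter windows of the same length. TATAA began 31 bases before the RefSeq start of Ppy and 27 bases before that of Pyy, and either strand of TATAA was in 22.8% of the windows. A second RefSeq start of Pyy lies downstream, where the same TATAA is 83 bases away. A match is a string of letters in a window and not a measured site.

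The libraries differed in depth. Over the shared genes the median cell held 2122, 450, 81, 213 and 506.5 UMIs in library order. Pregnant 2 stood apart, with 1193 features detected against 6070 to 27309 elsewhere, and in 9 of its cells the smallest value stood for more than 1 count. Its delta and gamma classes held under 10 cells and entered no main test. Its 7 delta-class cells did enter the alternative fits that took libraries of at least 5 cells. The non-pregnant library had no replicate and its table was scaled differently, so pregnancy state, table and depth cannot be told apart. Cells carried running numbers in place of barcodes, so barcodes shared by libraries could not be counted; no cell had the same counts as another.

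Of the delta marker list, the shared genes were Sst, Rbp4 and Hhex, a transcription factor of delta cells. Only Hhex is neither a member nor part of the rule. In the non-pregnant library it had 13 UMIs in 10 of 39 delta-class cells. This came to 152 CPM (depth-scaled counts, from UMIs pooled over cells) in delta-class cells, against 11.2, 11.0 and 13.0 CPM in gamma-, alpha- and beta-class cells. The delta classes of the other 4 libraries held 1, 0, 0 and 2 Hhex UMIs, too few to compare. Ghsr and Lepr, also on the list, were read in the non-pregnant library alone. Its delta-class cells held 0 and 1 UMIs of them, under the limit of 3 counts, and its beta-class cells held 2 and 6. Of the beta marker list 10 of 10 genes were measured, and they summed to 2.77% to 5.80% of delta-class UMIs in the 4 libraries other than pregnant 2, against 36.2% to 63.9% of beta-class UMIs. The 8 alpha markers took 0.227% to 0.755% of delta-class UMIs. Of the beta markers, Iapp (islet amyloid polypeptide) took 4.395%, 2.91%, 2.78% and 0.997% of delta-class UMIs in these libraries. Ins2 took 1.04%, 0.716%, 0.481% and 1.39%. In gamma-class cells Iapp took 0.632%, 1.21%, 0.373% and 0.170%. Delta-class barcodes thus held some beta marker transcripts, mostly Iapp except in postpartum 2, and their part in the values below was not tested. Acinar markers (6 of 6 measured) were at 0 in delta-class cells of all libraries but the non-pregnant one, where they took 0.00117% of UMIs.

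Sst made up a different share of a delta-class cell in each library. The mean cell gave 19.9% of its UMIs to Sst in the non-pregnant library, 6.10% in pregnant 1, 19.2% in pregnant 2, 9.33% in postpartum 1 and 12.4% in postpartum 2. Pregnant 1 was lowest and the non-pregnant library highest, and the mean over the 4 libraries with at least 10 cells was 11.9% ± 5.91 (SD). Cells within a library spread widely as well: in the non-pregnant library the SD over 39 cells was 7.83 percentage points and the highest cell reached 39.5%.

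Outside its own class Sst was low but rarely absent. Mean shares were 0.985%, 0.952%, 0%, 0.0407% and 1.06% in gamma-class cells, 0.696%, 0.423%, 0.0518%, 0.180% and 0.333% in alpha-class cells, and 0.712%, 0.289%, 0.0274%, 0.0776% and 0.162% in beta-class cells, in library order. The delta class held 54.4% of the Sst UMIs of the non-pregnant library, 21.5% of those of pregnant 1, 93.5% of those of pregnant 2, 64.0% of those of postpartum 1 and 53.1% of those of postpartum 2. Beta-class cells, which were far more numerous, held 67.0% of the Sst UMIs of pregnant 1. In droplet data free RNA also gives UMIs in cells that do not make a transcript.

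Rbp4 was a minor transcript that was highest on average in delta-class cells. Mean shares in delta-class cells were 0.350% in the non-pregnant library (295 UMIs, 37 of 39 cells), 0.302% in pregnant 1 (46 UMIs, 18 of 35 cells) and 0.160% in postpartum 2 (16 UMIs, 11 of 25 cells). Postpartum 1 had 0 Rbp4 UMIs in 15 delta-class cells, which allows a share of up to 0.160% (3 counts, for counting error only). Pregnant 2 had 0 in 7 cells, which allows up to 0.570%. Rbp4 was thus seen in delta-class cells of 3 libraries, and in postpartum 1 it lay below the level of the non-pregnant library.

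The other classes held less Rbp4 in the libraries where delta-class cells had any. Mean shares in library order were 0.0322%, 0.0381%, 0%, 0% and 0.0458% in gamma-class cells. Alpha-class cells had 0.0673%, 0.102%, 0%, 0.0541% and 0.0304%. Beta-class cells had 0.0182%, 0.0260%, 0%, 0.00357% and 0.00640%. Where both were above 0, the mean share in delta-class cells was at least 11.6 times that of beta-class cells, and 2.96 to 5.26 times that of alpha-class cells. In postpartum 1, 14 of 17 Rbp4 UMIs were in alpha-class cells and 0 in delta-class cells. These classes held 29374 and 1873 UMIs of all genes. The limit of 0.160% in its delta-class cells lies above the alpha-class share of 0.0541%, so the direction there cannot be told.

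Each cell with at least 200 UMIs was thinned to 200 UMIs so that detection could be set side by side across depths. Rbp4 was then detected in 46.2% of 39 delta-class cells of the non-pregnant library (exact 95% interval 30.1% to 62.8%), in 42.4% of 33 in pregnant 1 (25.5% to 60.8%) and in 12.5% of 24 in postpartum 2 (2.66% to 32.4%). No delta-class cell of postpartum 1 reached 200 UMIs, and thinning left out 2, and 1, such cells of pregnant 1 and postpartum 2. In beta-class cells, where Rbp4 is not a known marker, the thinned shares were 3.12%, 4.67% and 0.787% in these libraries. Before thinning, 94.9%, 51.4% and 44.0% of the delta-class cells had an Rbp4 UMI, at median depths of 1803, 359 and 379 UMIs, and beta-class cells had median depths of 2198.5, 461 and 501 UMIs.

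Ppy exceeded insulin, Gcg and Sst in gamma-class cells by the rule, while Pyy, which the rule leaves out, exceeded Ppy in 18 of 106 of them. The mean cell gave 27.9% of its UMIs to Ppy in the non-pregnant library, 21.0% in pregnant 1, 15.0% in pregnant 2, 24.7% in postpartum 1 and 32.7% in postpartum 2. Over the 4 libraries with at least 10 such cells the mean was 26.6% ± 4.97 (SD), so Ppy varied less between libraries, relative to its mean, than Sst did in delta-class cells. Delta-class cells held Ppy too, with mean shares of 2.39%, 1.51%, 0%, 1.60% and 2.22% in library order, and so did alpha-class cells (1.20%, 1.099%, 0.576%, 0.462% and 1.18%) and beta-class cells (0.731%, 0.775%, 0.0515%, 0.170% and 0.296%).

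Pyy was spread over the minor classes. In gamma-class cells its mean share was 13.7% in the non-pregnant library, 13.9% in pregnant 1, 39.1% in the 3 cells of pregnant 2, 21.8% in postpartum 1 and 15.1% in postpartum 2. Delta-class cells had 8.31%, 8.28%, 1.32%, 5.13% and 4.88% in the same order. Alpha-class cells had 3.82%, 4.84%, 1.18%, 1.96% and 2.48%, and beta-class cells 0.843%, 1.32%, 0.306%, 0.208% and 0.392%. In each of the 5 libraries the order of mean shares was gamma, delta, alpha, beta. Between libraries gamma- and delta-class values were separate, as were delta- and alpha-class values: the lowest gamma-class value (13.7%) lay above the highest delta-class value (8.31%), and the lowest delta-class value of a library with at least 10 cells (4.88%) lay just above the highest alpha-class value (4.84%). Alpha- and beta-class values overlapped between libraries, the lowest alpha-class value being 1.18% (pregnant 2) and the highest beta-class value 1.32% (pregnant 1).

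**Figure D1:**
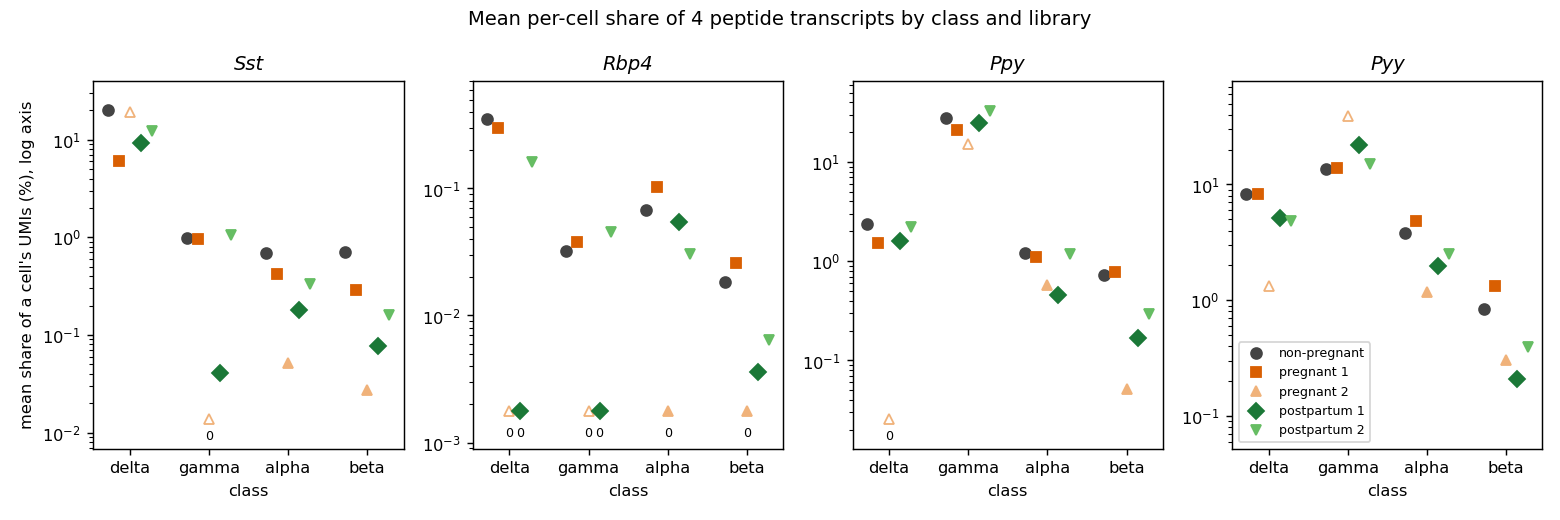
Mean share of a cell's UMIs (%, log axis) for each of the 4 genes by class, with 1 point per library; open points are libraries with under 10 cells of the class, and points marked 0 are drawn at the foot of the axis. Sst and Ppy peak in the classes they define, Rbp4 peaks in delta-class cells of 3 libraries, and Pyy descends from gamma- over delta- and alpha- to beta-class cells.

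Detection after thinning was near its ceiling for Pyy in delta- and gamma-class cells and did not separate them. At 200 UMIs per cell it was found in 100% of 39, 93.9% of 33 and 95.8% of 24 delta-class cells of the non-pregnant, pregnant 1 and postpartum 2 libraries, and in 100% of 34, 93.9% of 33 and 100% of 20 gamma-class cells. Alpha-class cells gave 88.3%, 91.3% and 73.0%, and beta-class cells 51.9%, 64.3% and 21.2%. Ppy was detected in 71.8% of 39, 57.6% of 33 and 18 of 24 thinned delta-class cells, against 48.1%, 53.2% and 14.9% of beta-class cells, where it is not a known product. In pregnant 1 the delta-class and beta-class shares were not separated beyond counting error (exact 95% interval of the delta-class share 39.2% to 74.5%). In gamma-class cells Sst was detected in 17.6%, 48.5% and 35.0% of thinned cells, while beta-class cells gave 44.8%, 31.5% and 12.8%; the non-pregnant share lay below that of beta-class cells, although 3 of its 34 gamma-class cells gave at least 5% of their UMIs to Sst. Before thinning, Pyy was detected in 100%, 97.1% and 100% of delta-class, 100%, 97.1% and 100% of gamma-class, 96.8%, 94.3% and 86.0% of alpha-class and 86.6%, 74.6% and 37.7% of beta-class cells. Ppy was then detected in 39 of 39, 21 of 35 and 20 of 25 delta-class cells against 89.8%, 66.9% and 28.8% of beta-class cells, and Sst in 70.6%, 57.1% and 38.1% of gamma-class cells against 83.7%, 47.1% and 21.5% of beta-class cells. Of gamma-class cells 0, 2 and 1 were too shallow to be thinned, of alpha-class cells 0, 3 and 1, and of beta-class cells 0, 36 and 5.

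The differences between classes were tested for Rbp4 and Pyy, with library as a term, on the 4 libraries with at least 10 cells of each class. The test was limma's on log2(mean CPM + 100), fitted over every gene that averaged 100 CPM or more, with Benjamini-Hochberg adjustment, two-sided. Between delta- and beta-class cells 42 of 1597 genes passed (2.63%), 24 of them higher in delta-class cells (1.5%), and both tested members were among these. Pyy was higher in delta-class cells by 3.52 ± 0.30 (log2, SE; adjusted p = 2.25e-29) and in 4 of 4 libraries. Rbp4 was higher by 2.43 ± 0.52 (adjusted p = 0.000349), in 3 of 4 libraries. The exception was postpartum 1, whose delta-class cells had 0 Rbp4 UMIs. The Rbp4 call rested on each of 3 libraries: the adjusted p was 0.114 without the non-pregnant library, 0.138 without pregnant 1 and 0.0923 without postpartum 2.

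Against alpha-class cells 31 of 1612 genes passed (1.92%; 1.3% were higher in delta-class cells), and Pyy was 1.06 ± 0.20 higher in delta-class cells (adjusted p = 3.28e-05, 4 of 4 libraries). This difference was not kept in every alternative, and its direction turned in edgeR alone. It was 0.54 (adjusted p = 0.232) when hormone UMIs were left out of the denominator, and -0.10 (adjusted p = 0.961) in edgeR's quasi-likelihood test on summed UMIs with TMM scaling; the call was also lost with libraries of at least 5 cells (adjusted p = 0.667) and in 1 fit of the 4 classes (adjusted p = 0.138). Rbp4 differed by 0.77 ± 0.50 (adjusted p = 0.598), higher in 3 of 4 libraries. Without postpartum 1 the Rbp4 difference was 1.92 ± 0.44 and passed (adjusted p = 0.00103).

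Pyy was also higher in gamma-class cells. The difference from beta-class cells was 4.81 ± 0.50 (limma, adjusted p = 5.31e-19), where 28 of 1217 genes passed (2.3%; 0.822% higher in gamma-class cells). Against alpha-class cells, where 9 of 1228 genes passed (0.733%; 0.244% higher in gamma-class cells), it was 2.36 ± 0.33 higher (adjusted p = 2.05e-10), and the call was lost in edgeR (1.79, adjusted p = 0.0853) and with a pseudocount of 1000 CPM (adjusted p = 0.0581). Both differences had the same sign in 4 of 4 libraries. Rbp4 did not pass in gamma-class cells: its difference was 0.58 ± 0.51 against beta-class cells (adjusted p = 0.798) and -1.08 ± 0.48 against alpha-class cells (adjusted p = 0.668).

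Between gamma- and delta-class cells 4 of 1701 genes passed (0.235%; 0.118% higher in gamma-class cells): Ppy, Sst, Iapp and Pyy. Pyy was 1.29 ± 0.22 higher in gamma-class cells (adjusted p = 0.0427, 4 of 4 libraries), a call close to the threshold that 9 of the alternatives did not keep. Iapp, which encodes the islet amyloid polypeptide, was lower in gamma-class cells, with a difference of -2.14 ± 0.34 (adjusted p = 0.0226); it is no member and was named after its value was seen. Rbp4 differed by -1.85 ± 0.61 (adjusted p = 0.522). It passed in edgeR's test (-2.76, adjusted p = 2.44e-07) and without postpartum 1 (-2.47, adjusted p = 8.25e-06), where both classes had 0 Rbp4 UMIs.

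**Figure D2:**
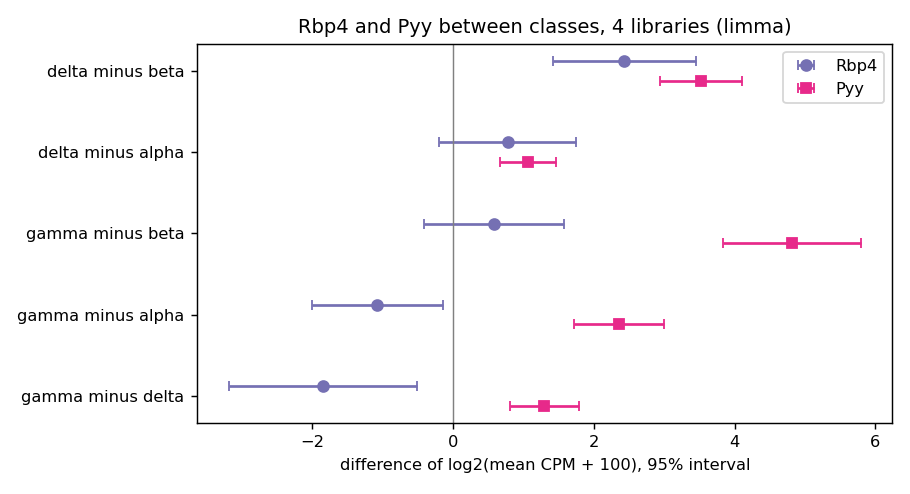
Differences of log2(mean CPM + 100) in Rbp4 and Pyy between classes, with 95% intervals from limma over 4 libraries. The Pyy intervals lie above 0 in all 5 comparisons, while Rbp4 is highest against beta-class cells in the delta class (2.43) and lowest in gamma- against delta-class cells (-1.85).

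In 4 of these 5 fits limma set the error of every gene from the trend over genes and not from the gene's own spread, and the exact sign-flip test over 4 libraries cannot go below p = 0.125. The median gene was itself shifted, by 0.40 between delta- and beta-class cells and by 0.35 between delta- and alpha-class cells; relative to it Pyy was higher by 3.12 and 0.72, and Rbp4 by 2.03 and 0.43. With edgeR the medians were -0.30 and -0.20, and Pyy relative to them 2.50 and 0.10. The split of calls moved as well. In edgeR's test 21 of 72 called genes were higher in delta- than in beta-class cells, and 11 of 41 were with non-hormone UMIs as the denominator. Against alpha-class cells 21 of 31 were higher in delta-class cells, against 16 of 40 in edgeR and 12 of 30 with non-hormone UMIs. For gamma- against beta-class cells the counts were 10 of 28, 11 of 50 and 6 of 28, for gamma- against alpha-class cells 3 of 9, 3 of 13 and 2 of 7, and for gamma- against delta-class cells 2 of 4, 6 of 16 and 1 of 1.

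Pyy and Ppy, the chromosome 11 neighbours, were not in one ratio in all classes. Pyy made up 34.6% of the summed Pyy and Ppy UMIs in gamma-class cells of the non-pregnant library, 37.9% in pregnant 1, 48.9% in postpartum 1 and 32.3% in postpartum 2. In delta-class cells the shares were 78.1%, 84.9%, 75.4% and 69.3% in the same libraries, in alpha-class cells 74.99%, 80.6%, 83.5% and 69.1%, and in beta-class cells 55.0%, 63.4%, 53.8% and 54.1%. Within each of these libraries the gamma-class share was lowest, the beta-class share was next and the delta- and alpha-class shares were highest. The exact 95% intervals of these levels did not overlap, except between gamma- and beta-class cells of postpartum 1 (45.8% to 52.0% and 48.5% to 59.1%). These intervals cover counting error of pooled UMIs and not the spread between cells. Single gamma-class cells of the non-pregnant library ran from 14.7% to 83.1%, so the order of the classes is a description. Ppy set the gamma class, so a low Pyy share in that class is partly given by the rule. UMIs are not adjusted for transcript length, so the shares are compared between classes only. Pregnant 2 departed from this, with 72.2% in gamma-class cells from 108 UMIs and 86.5% in beta-class cells from 37 UMIs.

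**Figure D3:**
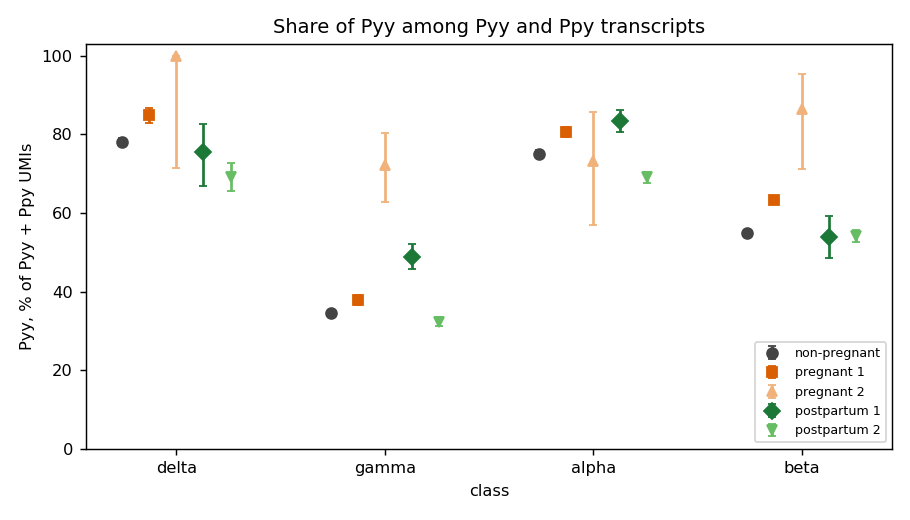
Pyy as a percentage of Pyy plus Ppy UMIs by class and library, with exact 95% binomial intervals that cover counting error only. Gamma-class values sit between 32.3% and 48.9% in the 4 deeper libraries, under their delta-class values of 69.3% to 84.9%. Ppy set the gamma class, so low values there are partly given by the rule.

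Rbp4 and Sst were likewise not in one ratio. Rbp4 made up 1.77%, 5.28% and 1.29% of the summed Rbp4 and Sst UMIs in delta-class cells of the non-pregnant, pregnant 1 and postpartum 2 libraries, against 9.42%, 18.7% and 10.5% in alpha-class cells. In postpartum 1 the share was 0% of 174 UMIs in delta-class cells (up to 2.10% by the exact interval) and 24.6% of 57 UMIs in alpha-class cells. Alpha-class cells thus held more Rbp4 for their Sst in all 4 libraries. Sst set the delta class, so this direction follows largely from the rule and is a description. As a share of all UMIs, Rbp4 was higher in delta- than in alpha-class cells of the non-pregnant, pregnant 1 and postpartum 2 libraries.

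Co-expression was counted among the 227 delta- and gamma-class cells as a share of at least 5% of a cell's UMIs for each gene. Pyy reached it in 177 cells (78.0%), Ppy in 109 and Sst in 108. Ppy and Pyy reached it together in 102 cells (44.9%, exact 95% interval 38.3% to 51.7%), and Sst and Pyy in 72 (31.7%, 25.7% to 38.2%). Sst and Ppy did so in 15 (6.61%, 3.75% to 10.7%), and 12 cells held all 3 hormones at this level. These intervals pool cells of 5 libraries and cover counting error only, not the spread between libraries. Outside pregnant 2, the share of a library was 41.3% to 52.1% for Ppy and Pyy. It was 21.7% to 49.3% for Sst and Pyy and 1.43% to 12.3% for Sst and Ppy. Pregnant 2 had 1, 0 and 0 such cells. Sst and Ppy were thus seldom high in the same cell, while outside pregnant 2 Pyy accompanied either of them. The rule allows both Sst and Ppy to be high, but it picked these cells by one of them and left Pyy out. The counts with and without Pyy are therefore not like for like and are a description.

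The 15 cells high in Sst and Ppy came from 4 libraries, with 9 in the non-pregnant library, 1 in pregnant 1, 1 in postpartum 1, 4 in postpartum 2 and 0 of 10 minor cells in pregnant 2. By class, 11 were delta-class and 4 gamma-class. Their depth was not raised: the median of their UMIs was 0.895 times the median of the minor cells of their library, and 6 of the 15 lay above that median. The doublet caller marked too few cells (0.320% of all) to be informative on them.

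**Figure D4:**
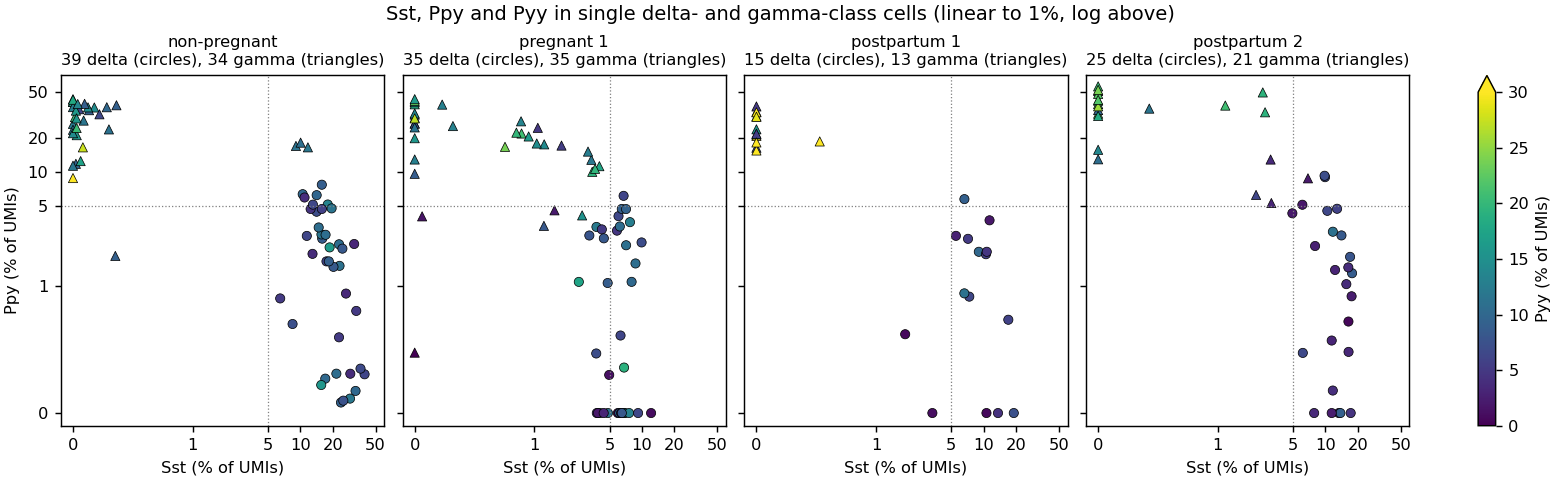
Share of a cell's UMIs (%) given to Sst and Ppy in each delta-class (circle) and gamma-class (triangle) cell of 4 libraries, coloured by the share of Pyy; axes are linear to 1% and logarithmic above, and dotted lines mark 5%. Few cells (15 in all) lie above both lines, and delta-class cells of pregnant 1 sit at lower Sst shares than those of the non-pregnant library (mean 6.10% against 19.9%).

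Pyy at 5% or more was the usual state of gamma-class cells, in 34 of 34, 31 of 35, 13 of 13 and 17 of 21 cells of the non-pregnant, pregnant 1, postpartum 1 and postpartum 2 libraries. Delta-class cells reached it in 33 of 39, 28 of 35, 8 of 15 and 10 of 25. Among alpha-class cells 27 of 94, 54 of 141, 12 of 121 and 26 of 179 did, and among all 3862 beta-class cells 75 did (1.94%). A fraction of alpha-class cells was high in Ppy and Pyy together, 24 of 558 (4.30%).

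Within the delta class Sst and Ppy shares ran against each other in the non-pregnant library (Spearman's rho -0.57 over 39 cells), with -0.20 over 15 cells of postpartum 1 and -0.29 over 25 cells of postpartum 2, but not in pregnant 1 (0.02 over 35 cells). Sst and Pyy shares were nearly unrelated, with rho between 0.00061 and 0.21. In gamma-class cells Ppy and Pyy had no common direction, with rho of -0.14, 0.32, -0.43 and 0.56 in the non-pregnant, pregnant 1, postpartum 1 and postpartum 2 libraries. In alpha-class cells Ppy and Pyy shares went up together in all 5 libraries, with rho between 0.25 and 0.57. Shares of one cell sum to a whole and share its depth, so these values describe the cells and are given without a test.

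The delta class of pregnant 1 stood apart in the balance of Pyy and Sst. Its median cell had Pyy at 57.1% of Pyy plus Sst UMIs, against 32.3% in the non-pregnant library, 30.4% in postpartum 1 and 25.8% in postpartum 2. In pregnant 2 the median of 7 cells was 0%, so the pregnant libraries lay on opposite sides of the others. The mean Pyy share there was 8.28%, against 8.31% in the non-pregnant library, and the mean Sst share was 6.10%, against 19.9%. With Pyy added to the hormones of the rule, an alternative chosen after seeing the data, 24 of the 35 delta-class cells of pregnant 1 would leave the class. The counts elsewhere were 1 of 39 in the non-pregnant library, 1 of 7 in pregnant 2, 3 of 15 in postpartum 1 and 1 of 25 in postpartum 2. In gamma-class cells Pyy was the largest in 5 of 34, 7 of 35, 2 of 3, 4 of 13 and 0 of 21 cells in library order.

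**Figure D5:**
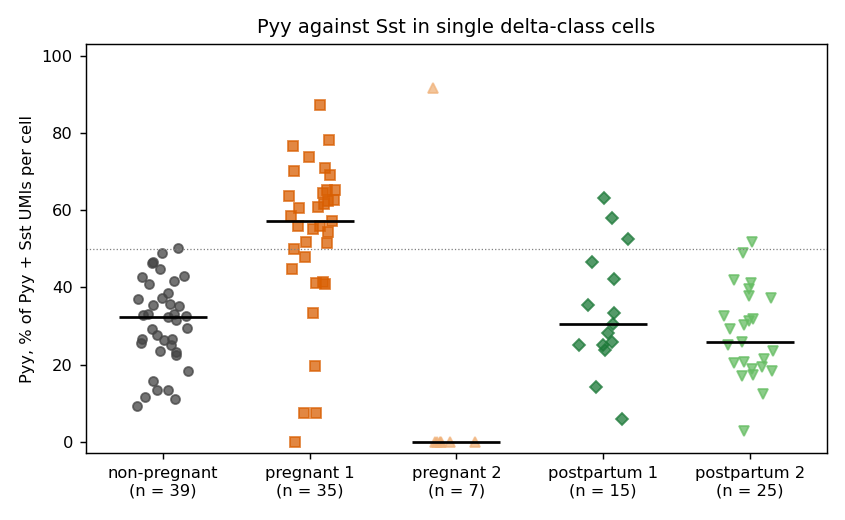
Pyy as a percentage of Pyy plus Sst UMIs in each delta-class cell by library, with the median as a bar. Pregnant 1 has its median at 57.1%, and the other libraries with at least 10 cells have theirs at 25.8% to 32.3%.

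A stricter class rule, with the leading hormone at 80% or more of the 4 and at least 5 UMIs, left this pattern in place. It kept 11 of 35 delta-class cells of pregnant 1, whose mean shares were 7.34% for Sst and 8.55% for Pyy with a median Pyy fraction of 56.0%. In the 25 delta-class cells kept in the non-pregnant library the mean shares were 23.3% and 8.78%, with a median fraction of 29.4%. Rbp4 was found in 7 of those 11 cells and in 23 of those 25. Under this rule the delta class was 0.553% of the cells of pregnant 1, against 1.76% by the largest hormone.

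The study compared pregnant and postpartum islets with non-pregnant ones. Delta-class cells were 4.64% of 841 cells in the non-pregnant library (exact 95% interval 3.32% to 6.29%), 1.76% of 1990 in pregnant 1, 4.35% of 161 in pregnant 2, 2.70% of 555 in postpartum 1 and 2.22% of 1125 in postpartum 2. Gamma-class cells were 4.04%, 1.76%, 1.86%, 2.34% and 1.87%. Pregnant 1 had the lowest delta-class share (exact interval 1.23% to 2.44%), while pregnant 2, with an interval of 1.77% to 8.75%, overlapped both pregnant 1 and the non-pregnant library. With 1 non-pregnant library the shares were not tested.

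For expression within a class, 1 fit per class held the 3 states and 4 libraries, leaving 1 residual degree of freedom. No gene passed in any of the 4 comparisons with limma (0% of 1952 genes in delta-class and of 1371 in gamma-class cells). At an unadjusted p under 0.05 there were 27 (pregnant) and 31 (postpartum) genes in delta-class cells and 34 and 49 in gamma-class cells, and edgeR also called 0. The lone pregnant and non-pregnant libraries were assumed to vary like the postpartum pair. Sst in delta-class cells, given as a description since it set the class, differed by -1.71 ± 0.31 between pregnant and non-pregnant and by -0.89 ± 0.27 between postpartum and non-pregnant.

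Pyy in delta-class cells differed by -0.0046 ± 0.14 between pregnant 1 and the non-pregnant library (adjusted p = 1, limma; 95% interval -0.60 to 0.59), and by -0.73 ± 0.12 between postpartum and non-pregnant (adjusted p = 1; -1.24 to -0.22). Both postpartum libraries, at 5.13% and 4.88%, lay below the 8.31% of the non-pregnant one. In gamma-class cells Pyy differed by 0.02 ± 0.52 in pregnant and by 0.40 ± 0.45 in postpartum islets, with 95% intervals of -2.40 to 2.44 and -1.69 to 2.50. Rbp4 in delta-class cells differed by -0.21 ± 2.94 and by -3.13 ± 2.54, with intervals of -12.9 to 12.5 and -14.1 to 7.88, the second resting on a postpartum library at 0. The median gene of the delta-class fit was shifted by 0.20 (pregnant) and 0.30 (postpartum), and relative to it Pyy differed by -0.21 and -1.03. These intervals are too wide to show that levels were alike.

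The levels outside the minor classes moved with the library. In beta-class cells the mean Pyy share was 0.843% for the non-pregnant library, 1.32% and 0.306% for the pregnant ones and 0.208% and 0.392% for the postpartum ones. Ppy in thinned beta-class cells was detected in 48.1% of cells of the non-pregnant library, 53.2% of those of pregnant 1 and 6.03% and 14.9% of those of the postpartum libraries. The values of delta- and gamma-class cells sit on this background, whose part in them was not tested.

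The genes whose levels were most like each member's were taken over 18 class-by-library means and 1350 genes, by Pearson's r on the log2 scale, as a description. Sst was followed by Hap1 (r = 0.89), Cd24a (0.89), Hspe1 (0.88), Cdh2 (0.88) and Arfgef3 (0.87). Mean levels of Hap1, the huntingtin-associated protein, were 1304 CPM in delta-class cells against 199 CPM in gamma-, 157 CPM in alpha- and 144 CPM in beta-class cells, and Cd24a, a cell surface glycoprotein, had 729 CPM against 50.1, 37.4 and 35.7 CPM. Rbp4 was followed by Ubl3 (0.90), Pld3 (0.89), Spen (0.88), Serping1 (0.86) and Rpl29 (0.86). Ppy and Pyy were each other's closest gene (r = 0.90); Ptov1, Cystm1, Dnajc12 and Wbp2 came next for Ppy (0.77 to 0.70), and Alcam, Ptov1 and B4galt6 for Pyy (0.77 to 0.74). Alcam, an adhesion molecule, had 529 CPM in delta- and 674 CPM in gamma-class cells against 171 CPM in alpha- and 46.6 CPM in beta-class cells. These genes were chosen for following a member, so high levels in the classes where that member is high follow from the choice. Cd24a met the filter of 100 CPM through its delta-class level. In postpartum 1 a count of 0 allowed up to 1602 CPM in delta- and 1399 CPM in gamma-class cells (3 counts), above the levels given here.

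Genes that process or store peptide hormones were all measured (11 of 11), and 1 or 2 of the 9 or 10 tested passed in each comparison with beta- or alpha-class cells. Over all genes 2.63% (delta against beta), 2.3% (gamma against beta), 1.92% (delta against alpha) and 0.733% (gamma against alpha) passed. In delta- against beta-class cells 1 of 10 tested was lower, Pcsk1 (-1.74 ± 0.53, adjusted p = 0.0432), a prohormone convertase, and 0 were higher. Pcsk1 was also lower in gamma- than in beta-class cells (-2.34 ± 0.50, adjusted p = 0.000366), again 1 of 10. Against alpha-class cells 2 of 10 tested genes passed in delta-class and 1 of 9 in gamma-class cells. The granins Scg2 (2.33 ± 0.42, adjusted p = 9.79e-06) and Chgb (2.42 ± 0.46, adjusted p = 3.28e-05) were higher in delta-class cells, and Scg2 (1.48 ± 0.41, adjusted p = 0.0477) in gamma-class cells, and 0 were lower in either. The list's median differences were 0.31 (delta minus beta), -0.10 (delta minus alpha), -0.22 (gamma minus beta) and -0.29 (gamma minus alpha), beside 0.40, 0.35, 0.04 and -0.01 over all genes tested.

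Transcription factors and receptors of delta and gamma cells gave 10 shared genes of 18, of which 5 to 7 were tested. In gamma- against beta-class cells 1 of 5 passed and was higher, beside 2.3% of all genes. Against alpha-class cells 1 of 6 was lower in delta-class and 1 of 7 in gamma-class cells, beside 1.92% and 0.733% of all genes passing. In delta- against beta-class and gamma- against delta-class cells 0 passed. Etv1 was 1.70 ± 0.51 higher in gamma- than in beta-class cells (adjusted p = 0.0367) and was not told from alpha-class cells (-0.19 ± 0.47). Of the retinoid list, which bears on Rbp4, only Ttr was tested. Ttr encodes transthyretin, the blood partner of Rbp4, and was lower in delta- than in beta-class cells by -2.06 ± 0.52 (adjusted p = 0.00543) and than in alpha-class cells by -6.24 ± 0.44 (adjusted p = 1.31e-42). In gamma-class cells it differed by 0.50 ± 0.46 from beta-class cells (adjusted p = 0.809) and was lower than in alpha-class cells by -3.68 ± 0.38 (adjusted p = 4.66e-19). Of the 5 somatostatin receptors and of the 5 relatives and receptors of the Ppy family, 1 each was among the shared genes and 0 were tested.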

How the data were processed

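Single-cell inDrop libraries of polyadenylated RNA from 5 samples were used. Per the submitters' processing notes the tools were Partek 8.0 and Bowtie 1.1.1 and the builds GRCm38 and mm10, with no roles; no source read here names the counter, the annotation or the cell filters. From its values, the deposited non-pregnant table holds a linear signal in which every cell sums to 3023.99. The other 4 deposited tables hold log2 values, which read as depth-scaled values plus 1, over 6695 features. UMI counts per cell were recovered from the deposited values as whole multiples of 1 step (100% within 0.1 of a whole number) in the 5 libraries, giving 2561319, 1136444, 14933, 134957 and 710529 UMIs. Genes were matched by symbol (6543) or unique synonym (87); the ribosomal features Rn45s and Gm42418 were left out.

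Scrublet in scanpy 1.11.5 called 6, 3, 3, 2 and 1 doublets; at 0.320% of 4687 cells the caller is taken not to have worked, and doublets remain possible. The test was limma 3.58.1 (R 4.3.3) on log2 of the mean CPM per class and library plus 100, with a filter of 100 CPM, at least 10 cells and an adjusted p under 0.05. Because the files hold normalized values, edgeR 4.0.16 on recovered UMIs was an alternative. Other alternatives were other pseudocounts, no filter, pooled or non-hormone UMIs, a class rule of 80%, at least 5 cells, cells of at least 200 UMIs, 1 fit of the 4 classes, leaving out each library and, chosen after seeing the data, Pyy as a further hormone. The scripts were tested on simulated counts. The labels do not say that libraries came from separate animals, so p-values measure only the spread between libraries, which may be technical. Intervals and limits for counts of 0 cover counting error only. Members and gene lists were chosen with earlier results of these data known. Named genes are the members, the 5 genes most like each, and list genes that passed or are needed to describe a list. Some genes that this rule names are not reported here.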

Additional observations from a re-analysis of the deposited data

Results flagged for a closer look

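Several genes of the gene lists are absent from the shared genes but were read in the non-pregnant library, and these values lay above the limit that a count of 0 allows (3 counts). They have no second library and no comparison. Among receptors of the peptides, Sstr2, a somatostatin receptor, had 60.4 CPM in alpha-class cells (11 UMIs in 8 of 94 cells) and 2.83 CPM in beta-class cells (5 UMIs in 674 cells). Sstr5 had 8.48 CPM and Sstr1 3.39 CPM in beta-class cells. Npy1r, a receptor of the neuropeptide Y family, had 32.9 CPM in alpha-class cells (6 UMIs) and 20.9 CPM in beta-class cells (37 UMIs).

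In delta-class cells of that library Sox9, a duct cell factor, had 105 CPM (9 UMIs in 4 of 39 cells), and Aldh1a3, a retinaldehyde dehydrogenase, and Cd68, a macrophage marker, had 46.8 CPM each (4 UMIs). Other duct and macrophage markers were mixed there: Krt19 and Lyz2 had 0 UMIs and Csf1r 1. The duct markers Krt7, Krt18 and Spp1 took 0.0679% of delta-class UMIs, against 0.142%, 0.164% and 0.0851% in gamma-, alpha- and beta-class cells. The macrophage markers C1qa and C1qb took 0.0211%, against 0.00112%, 0.00659% and 0.00870%. No cell type is read from these values. In gamma-class cells Gipr, the receptor of the incretin GIP, and Rxrg, a retinoid receptor, had 44.7 CPM each (4 UMIs in 34 cells). No state group holds more than 2 libraries, so no library could be set against its group's spread.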

How the results depend on the processing

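Between states no paired analysis was possible because the non-pregnant group has 1 library, so the groups compared share fewer than 2 replicate numbers. The class comparisons had library as a term. Of 149 alternative values of Rbp4 and Pyy between classes 119 kept direction and side of the threshold, 21 kept direction but lost the call, 8 gained it and 1 turned. That was Pyy between delta- and alpha-class cells in edgeR (-0.10). Between states 8 of 125 turned, none of them called. These were Pyy in delta-class cells, pregnant minus non-pregnant (0.0269 with UMIs pooled over cells, 0.00017 with cells of at least 200 UMIs), and Rbp4 there (0.25 with the 80% class rule). In gamma-class cells they were Pyy, pregnant minus non-pregnant (-0.37 in edgeR, -0.13 pooled), Ppy, postpartum minus non-pregnant (-0.38 in edgeR, -0.18 without postpartum 2, with 0.23 without postpartum 1), and Pyy, postpartum minus non-pregnant (-0.24 in edgeR). The cause was not tested.

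Rbp4 in delta- against beta-class cells also lost its call with a pseudocount of 10 CPM (adjusted p = 0.116), with no filter (0.0519), with at least 5 cells (0.396) and in 1 fit of the 4 classes (0.0589). Pyy in gamma- against delta-class cells lost it with pooled UMIs, non-hormone UMIs, either other pseudocount, no filter, the 80% class rule, cells of at least 200 UMIs, without postpartum 2 and in the joint fit (adjusted p 0.0585 to 0.751).

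Counts of genes passing moved by over 1.5 times as follows. Delta against beta (42) became 72 in edgeR, 27 with a pseudocount of 10 CPM, 21 with no filter, 11 with at least 5 cells, 23 with the 80% class rule and 65 with cells of at least 200 UMIs. Delta against alpha (31) became 19 and 14 with pseudocounts of 10 and 1000 CPM, 11 with no filter, 3 with at least 5 cells and 13 with the 80% rule. Gamma against beta (28) became 50 in edgeR, 14 and 10 with those pseudocounts, 11 with no filter and 18 in the joint fit. Gamma against alpha (9) became 3 with a pseudocount of 1000 CPM, 4 with no filter and 5 in the joint fit. Gamma against delta (4) became 16 in edgeR, 1 with non-hormone UMIs, 1 and 2 with those pseudocounts, 1 with no filter, 7 with the 80% rule, 13 with cells of at least 200 UMIs and 36 in the joint fit. Leaving out 1 library gave 15 to 69, 10 to 34, 10 to 43, 4 to 13 and 1 to 18 genes in these 5 comparisons. Without pregnant 1, the postpartum comparisons gave 8 genes in delta- and 2 in gamma-class cells.

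With no filter the state comparisons (0 genes) gave 3162 (pregnant) and 3015 (postpartum) in delta-class and 3704 and 3500 in gamma-class cells; 3155, 2998, 3699 and 3494 of these genes had 0 counts in both postpartum libraries, which supply the only residual spread. With non-hormone UMIs gamma-class cells gave 76 and 13, all of that kind. Class shares moved beyond their interval in 7 of 30 values and thinned detection in 13 of 68. In delta-class cells a count of 0, as for Rbp4, allowed a share of up to 0.160% in postpartum 1 and 0.570% in pregnant 2.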
